A study of Mus musculus with 12 samples.

Results

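The genes described here are 9 of the 16239 named genes in liver RNA-seq files of the mouse: the matrix metalloproteinases Mmp2, Mmp14 and Mmp19, the tissue inhibitors of metalloproteinases Timp1, Timp2 and Timp3, and the plasminogen activators Plat and Plau with the receptor Plaur. They were picked by gene symbol (gene numbers 17390, 17387 and 58223 for Mmp2, Mmp14 and Mmp19, 21857, 21858 and 21859 for Timp1 to Timp3, and 18791, 18792 and 18793 for Plat, Plau and Plaur), and each was listed in all 12 libraries and was among the 12587 genes tested. The mice, of strain 129/B6 and 10 months of age, had been on an HF or an LF diet for 8 months. All of them carried either floxed TSP1 (thrombospondin 1, encoded by Thbs1; given as WT in the genotype label) or a TSP1 knockout specific to macrophages. The groups are HF knockout, HF floxed, LF knockout and LF floxed, with 3 libraries each. The labels do not name the Cre driver of the knockout, spell out the diets' make-up or give the sex. Replicates are numbered but not tied to animals, so a p-value here speaks only of library-to-library spread, part of which may be technical.

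Matrix metalloproteinases are zinc enzymes that cut collagens and other matrix proteins, and the TIMP proteins bind their active sites. MMP14 sits in the cell membrane and, with TIMP2 as a bridge, activates the secreted gelatinase MMP2, so TIMP2 takes part in both activation and inhibition. Plasminogen activators turn plasminogen, a product of hepatocytes, into plasmin, which cuts fibrin and can activate some metalloproteinases. In the liver, stellate cells, endothelium and macrophages are known sources of these genes, and the balance of proteases and inhibitors is studied as a feature of fibrosis.

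Libraries held 16131506 to 16536016 estimated counts, and the coefficient of biological variation, taken over all tested genes, was 52.9% in HF knockout, 26.5% in HF floxed, 23.3% in LF knockout and 28.2% in LF floxed libraries. HF floxed replicates 1 and 2 were closer to each other than other replicates, as were LF knockout replicates 2 and 3, with a median chi-square per gene of 1.99 and 1.06, against 3.67 to 18.37 for the other pairs within groups. Sampling noise alone gives 0.455, so these libraries differed by more than that, which does not tell separate animals from repeat libraries of the same animal. They were counted separately, and results with each pair averaged are given where they matter. HF floxed replicate 3 was the lowest of its group for 8 of the 9 genes below, against 67.8% of all tested genes. HF knockout replicate 1 was the lowest of its group for 9, against 57.4%. The files of both these libraries carry a different name form. LF knockout replicate 1 was also the lowest of its group for 9, against 53.8%. Thbs1 measured 0.16, 1.42 and 1.63 FPKM in HF knockout libraries, against 0.75, 0.75 and 0.31 FPKM in HF floxed libraries. It measured 0.08, 0.55 and 0.55 FPKM in LF knockout libraries, against 0.11, 0.06 and 0.07 FPKM in LF floxed libraries. On HF, knockout replicate 1 was below all floxed libraries, and replicates 2 and 3 were above them. On LF, knockout replicate 1 lay within the floxed range, and replicates 2 and 3 lay above it. The targeted gene was therefore not lower throughout the libraries labelled knockout, and RNA of whole liver does not show its level in macrophages. Knockout is used below as the label's word.

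RefSeq promoter sequences (build GRCm38.p6, 250 bases before the start) were at hand for 5 of the 9 genes: Plaur, Timp1, Timp2, Timp3 and Mmp14. Printed here are the 3 of these that were higher on HF than on LF, averaged over genotypes, at an unadjusted edgeR p under 0.05. They are read 5′ to 3′ on the gene's strand, at chr7:24462233-24462482 (plus) for Plaur, chrX:20869916-20870165 (plus) for Timp1 and chr11:118355412-118355661 (minus) for Timp2. Capitals mark the AP-1 motif (TGACTCA or TGAGTCA) and the Sp1 motif (GGGCGG), each searched on both strands, where CCGCCC is the Sp1 motif on the other strand.
Plaur: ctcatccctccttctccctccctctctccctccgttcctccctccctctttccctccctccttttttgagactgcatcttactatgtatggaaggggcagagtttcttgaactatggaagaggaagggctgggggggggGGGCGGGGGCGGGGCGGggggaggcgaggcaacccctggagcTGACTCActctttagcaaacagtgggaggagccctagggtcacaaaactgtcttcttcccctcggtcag
Timp1: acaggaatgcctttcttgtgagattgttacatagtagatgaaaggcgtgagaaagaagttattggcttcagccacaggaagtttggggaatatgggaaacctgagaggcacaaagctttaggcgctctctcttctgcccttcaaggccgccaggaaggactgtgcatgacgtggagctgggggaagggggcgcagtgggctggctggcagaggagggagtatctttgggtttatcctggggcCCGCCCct
Timp2: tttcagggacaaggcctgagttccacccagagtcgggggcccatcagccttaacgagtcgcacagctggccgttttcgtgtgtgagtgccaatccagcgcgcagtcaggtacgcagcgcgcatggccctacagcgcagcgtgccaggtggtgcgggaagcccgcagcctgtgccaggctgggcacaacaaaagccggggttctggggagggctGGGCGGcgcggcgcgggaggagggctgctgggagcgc
The Plaur window held an AP-1 motif 69 bases before the start, and 3 adjoining Sp1 motifs farther from it, and Timp1 and Timp2 held 1 Sp1 motif each, at 8 and 37 bases before the start. Of the 5 promoters, 1 held the AP-1 motif, against 4.46% of 32851 promoters of the same length, and 5 held the Sp1 motif, against 32.7%. The TATA box letters TATAAA were in 0 of the 5 and in 12.4% of all promoters. These are matches of letters, and the GC content of the printed windows was 59.6% for Plaur, 54.4% for Timp1 and 68.0% for Timp2, against a median of 52.4%.

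Levels differed widely between the 9 genes. In median FPKM, the unit per gene length and library in the authors' files, Mmp19 was at 16.4 and Mmp14 at 13.8, followed by Timp2 at 5.09, Timp3 at 3.05 and Mmp2 at 1.06. Timp1 at 0.54, Plaur at 0.42, Plau at 0.415 and Plat at 0.33 were lowest. The highest of the 12 libraries exceeded the lowest 2.24-fold for Mmp19, 3.84-fold for Timp2 and 4.42-fold for Mmp14, and 6.04-fold for Mmp2 and 9.78-fold for Timp3. The range was 37.5-fold for Timp1, 26.1-fold for Plaur, 41.2-fold for Plau and 80.0-fold for Plat. Those 4 genes had 1 to 77 estimated counts a library, so counting error is part of the spread: 2 counts of Timp1 have a 95% Poisson interval of 0.242 to 7.22, and 77 counts one of 60.8 to 96.2. Intervals cover counting error only. Timp1, Plat, Plau and Plaur had under 10 counts in several LF libraries and passed the filter on low counts through the libraries in which they were higher.

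**Figure D1:**
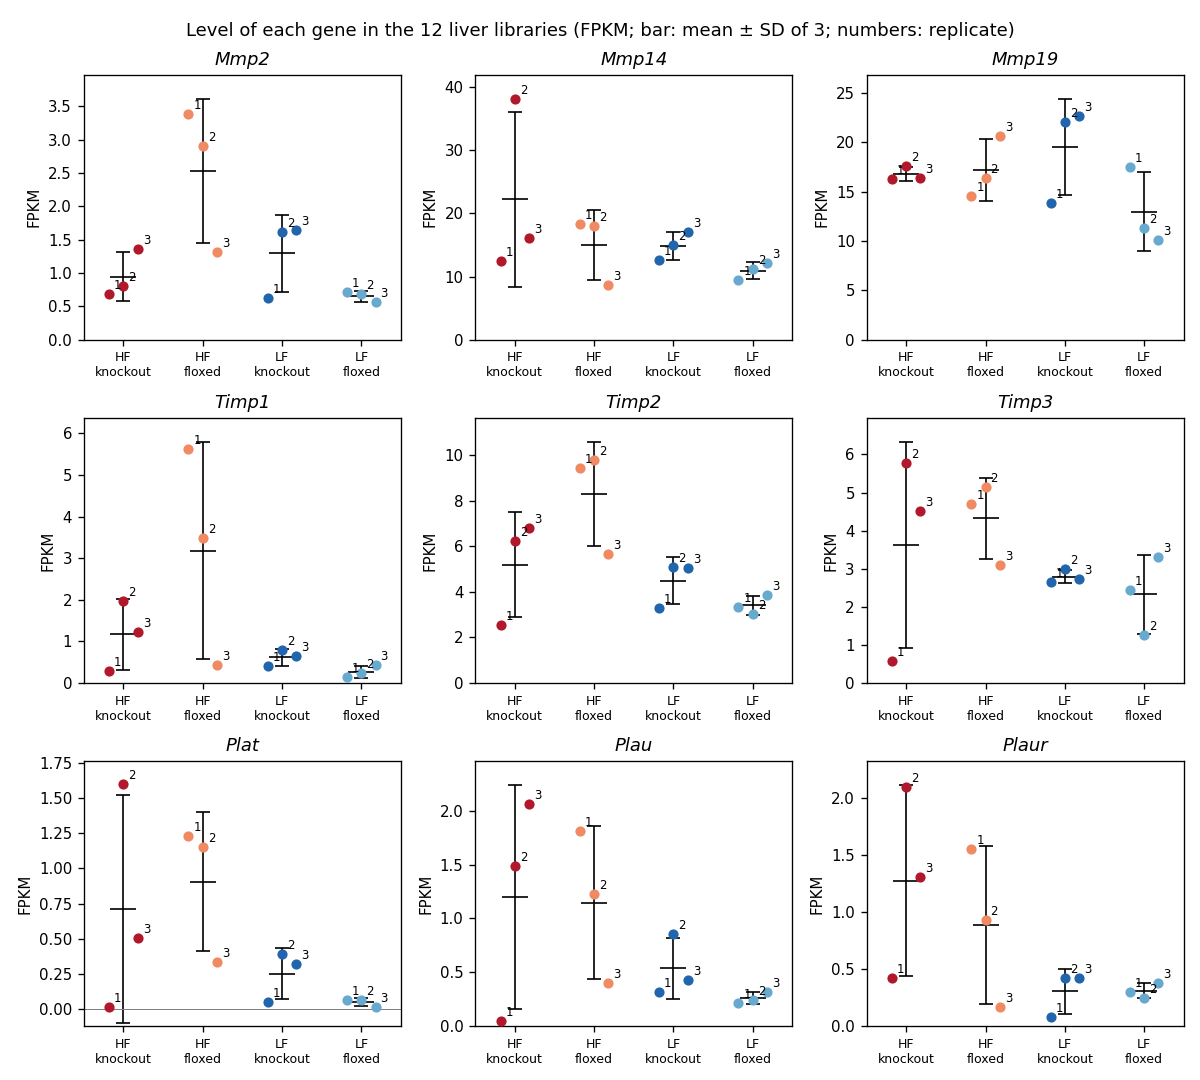
FPKM (vertical axis, separate for each gene) of the 9 genes in the 4 groups on the horizontal axis; points are libraries with their replicate number, and bars are the mean and SD of 3. For Mmp2, Timp1, Timp2, Timp3 and Plat the HF floxed mean is the highest of the 4 groups, and replicate 3 is the lowest HF floxed point of each.

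Mmp2, the gelatinase that cuts denatured collagen and basement membrane collagen, was at 0.68, 0.80 and 1.36 FPKM in HF knockout libraries, 3.38, 2.90 and 1.32 FPKM in HF floxed libraries, 0.63, 1.62 and 1.64 FPKM in LF knockout libraries and 0.72, 0.68 and 0.56 FPKM in LF floxed libraries. HF floxed libraries lay above all LF floxed ones, by 1.65 on the log2 scale of the fitted counts (SE 0.40, edgeR adjusted p = 0.215). On HF, knockout libraries averaged 0.947 ± 0.363 FPKM against 2.53 ± 1.08 FPKM in floxed ones (SD, n = 3 each), a log2 difference of -1.29 (SE 0.39, edgeR adjusted p = 0.598). The diet difference was lower in knockout than in floxed libraries by 2.08 on the log2 scale (interaction, SE 0.55, edgeR adjusted p = 0.396, before adjustment 0.00296), and none of these passed. In the order of group means, HF floxed, LF knockout, HF knockout and LF floxed, each group's range overlapped that of its neighbour.

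Mmp14, the membrane protease that activates proMMP2, was at 12.53, 38.11 and 16.05 FPKM in HF knockout libraries, 18.29, 18.01 and 8.63 FPKM in HF floxed libraries, 12.55, 14.99 and 16.99 FPKM in LF knockout libraries and 9.47, 11.21 and 12.15 FPKM in LF floxed libraries. The highest value of the 12 belonged to HF knockout replicate 2, and without that library the difference between HF knockout and HF floxed was 0.12 on the log2 scale, against 0.69 (SE 0.34) with it. LF knockout libraries lay above LF floxed ones, 14.8 ± 2.22 against 10.9 ± 1.36 FPKM (SD, n = 3 each), with a log2 difference of 0.26 in counts (SE 0.34, edgeR adjusted p = 0.948). The other neighbours in the order of means overlapped.

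Mmp19, a secreted metalloproteinase, was at 16.29, 17.58 and 16.37 FPKM in HF knockout libraries, 14.57, 16.34 and 20.64 FPKM in HF floxed libraries, 13.88, 22 and 22.63 FPKM in LF knockout libraries and 17.49, 11.36 and 10.09 FPKM in LF floxed libraries. All neighbouring groups overlapped, and the log2 differences in the 4 pairwise comparisons were 0.17, -0.17, 0.07 and 0.41 (edgeR adjusted p = 0.829, 0.832, 0.969 and 0.929), for HF against LF in floxed, the same in knockout, knockout against floxed on HF and the same on LF. Mmp19 overlaps Tmem198b on the opposite strand, which was at 6.65 to 12.87 FPKM, and the sources do not say whether the counting used strand.

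Timp1, a secreted inhibitor that is induced in fibrotic liver, was at 0.29, 1.98 and 1.23 FPKM in HF knockout libraries, 5.62, 3.49 and 0.43 FPKM in HF floxed libraries, 0.40, 0.80 and 0.65 FPKM in LF knockout libraries and 0.15, 0.24 and 0.43 FPKM in LF floxed libraries. HF floxed averaged 3.18 ± 2.61 FPKM, against 0.273 ± 0.143 FPKM in LF floxed libraries, and the groups touched at 0.43 FPKM. The fitted fold was 9.25 (log2 SE 0.87, edgeR adjusted p = 0.244, before adjustment 0.00339). The high values are those of replicates 1 and 2, the near-identical pair. With such pairs averaged the log2 difference was 2.85 (edgeR adjusted p = 0.886, with 0.721 the smallest of all genes), against 3.21 otherwise. In HF against LF knockout libraries it was 0.91 (SE 0.81, edgeR adjusted p = 0.678). Timp1 overlaps Syn1 on the opposite strand, which was at 0.06 to 0.63 FPKM.

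Timp2, which bridges MMP14 to proMMP2, was at 2.55, 6.25 and 6.80 FPKM in HF knockout libraries, 9.42, 9.79 and 5.66 FPKM in HF floxed libraries, 3.29, 5.10 and 5.07 FPKM in LF knockout libraries and 3.35, 3.03 and 3.86 FPKM in LF floxed libraries. All 3 HF floxed libraries were above all 3 LF floxed ones, 1.99-fold in the fit (log2 SE 0.26, edgeR adjusted p = 0.236, before adjustment 0.00285). HF knockout exceeded LF knockout by a log2 difference of 0.20 (SE 0.26, edgeR adjusted p = 0.788) and differed from HF floxed by -0.58 (SE 0.26, edgeR adjusted p = 0.638). Timp2 overlaps Cep295nl on the same strand, which was at 0 to 0.06 FPKM.

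Timp3, an inhibitor bound to the matrix, was at 0.59, 5.77 and 4.51 FPKM in HF knockout libraries, 4.70, 5.15 and 3.11 FPKM in HF floxed libraries, 2.66, 2.98 and 2.74 FPKM in LF knockout libraries and 2.43, 1.25 and 3.32 FPKM in LF floxed libraries. Its spread was widest in HF knockout, 9.78-fold between libraries, and every pair of neighbouring groups overlapped. None of its 4 pairwise differences passed, with log2 differences of 0.60, 0.31, -0.20 and 0.08 in the order given for Mmp19. Timp3 overlaps Syn3 on the opposite strand, which was at 0.16 to 0.35 FPKM.

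Plat, tissue-type plasminogen activator, was at 0.02, 1.60 and 0.51 FPKM in HF knockout libraries, 1.23, 1.15 and 0.34 FPKM in HF floxed libraries, 0.05, 0.39 and 0.32 FPKM in LF knockout libraries and 0.07, 0.07 and 0.02 FPKM in LF floxed libraries. In counts, that is 51, 47 and 14 in HF floxed against 3, 3 and 1 in LF floxed libraries, which did not overlap. The fitted fold was 12.3 (log2 SE 1.14, edgeR adjusted p = 0.287, before adjustment 0.00829). Between HF knockout libraries the values ranged 80.0-fold, from 1 count in replicate 1 (95% Poisson interval 0.0253 to 5.57) to 65 in replicate 2. The log2 difference from HF floxed, -0.27, became 0.31 without replicate 1 and -1.67 without replicate 2.

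Plau, urokinase, was at 0.05, 1.49 and 2.06 FPKM in HF knockout libraries, 1.81, 1.23 and 0.40 FPKM in HF floxed libraries, 0.32, 0.86 and 0.43 FPKM in LF knockout libraries and 0.22, 0.24 and 0.32 FPKM in LF floxed libraries. HF floxed libraries lay above LF floxed ones, with a log2 difference of 1.83 (SE 0.86, edgeR adjusted p = 0.419). Within HF knockout, replicate 1 was 41.2-fold below replicate 3, with 2 and 77 counts, and the range of HF knockout libraries spanned those of all other groups.

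Plaur, the membrane receptor that holds urokinase at the cell surface, was at 0.42, 2.09 and 1.31 FPKM in HF knockout libraries, 1.55, 0.93 and 0.17 FPKM in HF floxed libraries, 0.08, 0.42 and 0.42 FPKM in LF knockout libraries and 0.30, 0.25 and 0.38 FPKM in LF floxed libraries. HF knockout averaged 1.27 ± 0.836 FPKM, against 0.307 ± 0.196 FPKM in LF knockout libraries (SD, n = 3 each). In counts, HF knockout exceeded LF knockout by a log2 difference of 2.01 (SE 0.77, edgeR adjusted p = 0.356, before adjustment 0.0231). The groups met at 0.42 FPKM, the value of HF knockout replicate 1, and the smallest HF floxed library, replicate 3, was below every LF floxed one.

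Across the 9 genes, 0 passed a false discovery rate of 5% in any of the 7 comparisons by edgeR. Counts of members are set beside the share of all genes as description only, here and below. The members were chosen with earlier results of these data known. Timp1, Plat, Plau and Plaur also passed the filter on low counts through libraries in which they were higher. In HF floxed against LF floxed, 0% of all tested genes passed, and 4 of 9 members (Mmp2, Timp1, Timp2 and Plat) were higher at an unadjusted p under 0.05, against 6.85% of all genes higher and 5.32% lower. All 9 had log2 differences above 0, with a median of 1.18, against 0.00 over all genes. In FPKM, 4 of 9 (Mmp2, Timp2, Plat and Plau) had groups that did not overlap, all higher in HF floxed, against 23.6% of all genes higher and 3.3% lower. On the log2(FPKM + 1) scale the median of all genes was itself 0.20 higher in HF floxed libraries. With counts scaled by TMM, the same 4 genes stood apart, against 11.5% of all genes higher and 12.5% lower. An exact permutation test of 3 against 3 libraries cannot go below 0.1 and adds nothing to such a separation, so none is given. In this comparison DESeq2 called 3 members (Mmp2, Timp1 and Timp2), against 2.02% of all genes, and voom with sample weights called 3 (Mmp2, Timp2 and Plat), against 9.84%. With near-identical libraries averaged, the edgeR adjusted p of Mmp2, Timp1, Timp2 and Plat was 0.886 each. In that setting 0 of all 12732 genes passed, and their smallest edgeR adjusted p was 0.721.

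In HF knockout against LF knockout, 7 of 9 members had log2 differences above 0, with a median of 0.59, against 0.03 over all genes. No gene in all passed by edgeR (0%), Plaur was the 1 member with an unadjusted p under 0.05, against 8.81% of all genes higher and 3.38% lower, and groups of 0 members were apart in FPKM, against 5.59% of all genes higher and 5.98% lower. In HF knockout against HF floxed, 4 of 9 were above 0, with a median of -0.20. Mmp2 and Timp2 were lower at an unadjusted p under 0.05, against 4.59% of all genes higher and 3.06% lower, and groups of 0 members were apart in FPKM, against 2.25% higher and 7.08% lower. Both comparisons use the HF knockout libraries, so their values are not independent.

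In LF knockout against LF floxed, 8 of 9 members were above 0, with a median of 0.41, while 0 members had an unadjusted p under 0.05, against 2.58% of all genes higher and 2.55% lower, and 0.0159% passed. Mmp14 alone had groups apart in FPKM, higher in knockout, against 16% of all genes higher and 2.18% lower. Averaged over genotypes, HF against LF gave 6 of 9 members higher at an unadjusted p under 0.05 (Mmp2, Timp1, Timp2, Plat, Plau and Plaur), against 10.4% of all genes higher and 4.83% lower. Of the 6, Timp1, Plat, Plau and Plaur passed the filter on low counts through libraries in which they were higher, so the tally is description only. The log2 differences of the 6 were 0.61, 2.06, 0.60, 2.54, 1.46 and 1.60 (edgeR adjusted p = 0.326, 0.2, 0.205, 0.202, 0.293 and 0.225), while 0.00794% of all genes passed. DESeq2 called 2 of them, Timp1 and Plat, against 3.2% of all genes, and voom called Timp2 alone, against 4.61%. In the other 5 comparisons DESeq2 and voom called 0 members. Of all 12587 genes, DESeq2 called 126 and voom 7 for HF against LF knockout, 69 and 1 for knockout against floxed on HF, and 34 and 631 on LF. They called 107 and 28 in the interaction and 23 and 4 for the averaged genotypes. Averaged over diets, knockout against floxed gave 0 members under that p, against 1.85% of all genes higher and 1.37% lower, with 0% passing. In the interaction, 1 of 9 (Mmp2) was lower under it, against 5.21% of all genes higher and 4.34% lower, and 0.0159% passed. Over both directions, an unadjusted p under 0.05 was reached by 12.2% of all genes for HF against LF in either genotype, 7.65% for knockout against floxed on HF and 5.13% on LF. It was reached by 9.55% in the interaction, 15.2% for the averaged diets and 3.22% for the averaged genotypes.

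**Figure D2:**
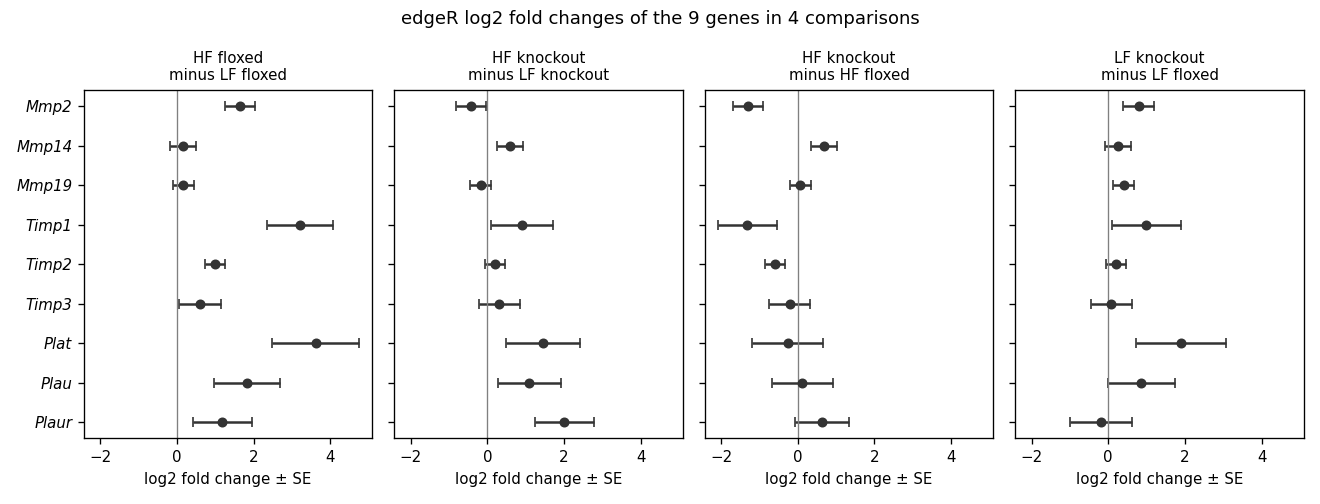
Fitted log2 fold changes of the 9 genes (axis in log2 units) in the pairwise comparisons, with bars of 1 standard error. Timp1 and Plat have the largest values in HF floxed against LF floxed, 3.21 and 3.62, and Plat has the widest bar there, 1.14.

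Some libraries were low for most of the 9 genes at once. Of the 3 HF knockout libraries, replicate 1 was lowest for 9 of 9 members, against 57.4% of all tested genes. LF knockout replicate 1 was lowest for 9 of 9, against 53.8%. HF floxed replicate 3 was lowest for 8 of 9, against 67.8%, with Mmp19 as the exception. Over the 12 libraries, HF knockout replicate 1 was lowest for 4 members, against 24.6% of all tested genes. HF knockout replicate 2 was highest for 4, for which the share of all genes was not computed. With HF knockout replicate 1 and HF floxed replicate 3 both removed, HF against LF averaged over genotypes had 5 members past the test: Timp1 (log2 difference 2.50), Timp2 (0.78), Plat (2.97), Plau (1.90) and Plaur (1.99), with edgeR adjusted p of 0.016, 0.0184, 0.0244, 0.0185 and 0.034, against 5.32% of all genes. In HF floxed against LF floxed it had 2, Timp1 and Timp2, against 1.23%. These calls carry little weight: both libraries removed are HF libraries that were low for most members, which by itself raises HF over LF, while LF knockout replicate 1 was kept. The HF floxed group was then also left with its near-identical pair alone, whose spread may be too small. With all libraries kept and such pairs averaged, the same 5 members had edgeR adjusted p of 0.582 to 0.595 in HF against LF averaged over genotypes. The smallest edgeR adjusted p of all 12732 genes there was 0.486, and 0 passed. What sets these libraries apart was not tested.

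**Figure D3:**
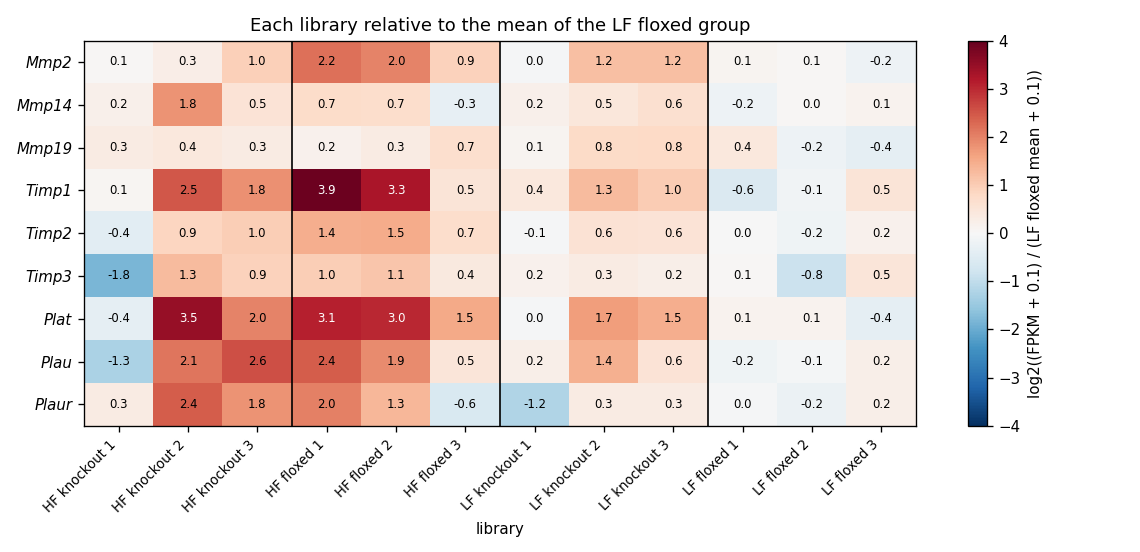
Level of each gene (rows) in each library (columns), as log2 of FPKM + 0.1 relative to the LF floxed mean + 0.1, with groups split by lines. HF knockout replicate 1 is the lowest of its group for all 9 genes, and Mmp19 has the smallest range over the 12 libraries, 2.24-fold in FPKM.

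Ratios within a library, in which the library's scaling cancels, gave another view of proteases and inhibitors. Mmp14 over Timp2 was 4.91, 6.10 and 2.36 in HF knockout libraries, 1.94, 1.84 and 1.52 in HF floxed libraries, 3.81, 2.94 and 3.35 in LF knockout libraries and 2.83, 3.70 and 3.15 in LF floxed libraries. The 3 HF floxed ratios were below all 9 others, which was noticed in these data and is given without a test. Mmp2 over Timp2 averaged 0.198 ± 0.0694 in HF knockout, 0.296 ± 0.0628 in HF floxed, 0.278 ± 0.0746 in LF knockout and 0.195 ± 0.0433 in LF floxed libraries. Its 3 HF floxed values (0.359, 0.296 and 0.233) were above the 3 LF floxed ones (0.215, 0.224 and 0.145), and the other pairs of groups compared overlapped. Timp1 over Timp2 averaged 0.204 ± 0.103 in HF knockout, 0.343 ± 0.261 in HF floxed, 0.136 ± 0.0188 in LF knockout and 0.0785 ± 0.0333 in LF floxed libraries (SD, n = 3 each). The 3 LF knockout values of that ratio were all above the 3 LF floxed ones, but this carries little weight. The nearest values were 0.122 in LF knockout replicate 1 and 0.111 in LF floxed replicate 3. They rest on 5 Timp1 and 193 Timp2 counts against 6 and 227. The files scaled Timp1 to a gene length of 825 in the former library and 902 in the latter.

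**Figure D4:**
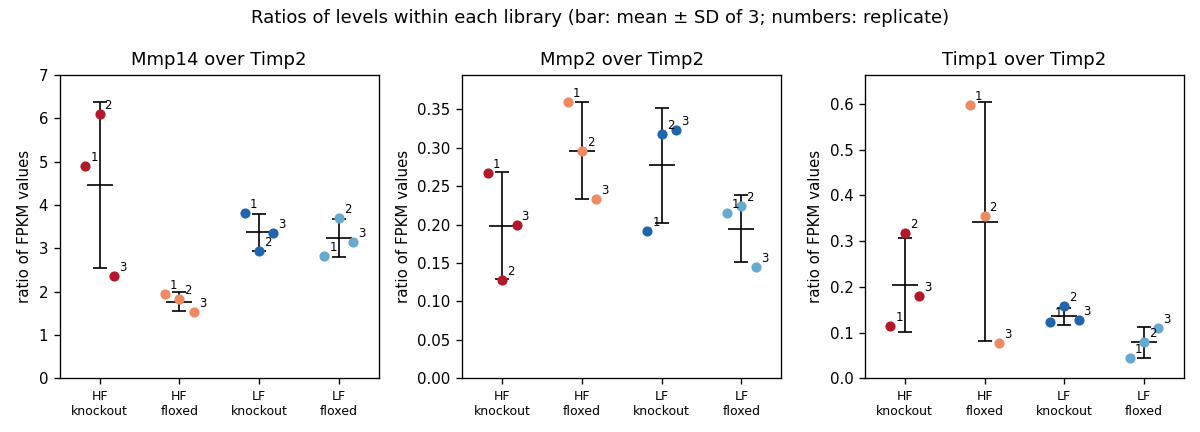
Ratios of FPKM within each library (vertical axis, no unit) by group, with points for libraries and bars for the mean and SD of 3. The Mmp14 over Timp2 ratio lies between 1.52 and 1.94 in HF floxed libraries and between 2.36 and 6.10 in the other groups.

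Of 58 other genes of matrix proteolysis and its inhibitors, all were listed and 45 were tested. The list was chosen with earlier results of these data known, so its counts are description only. In HF floxed against LF floxed 0 passed, and 9 were higher and 1 lower at an unadjusted p under 0.05, with a median log2 difference of 0.57. Of all genes, 6.85% were higher and 5.32% lower. In HF knockout against LF knockout the counts were 7 and 1 (median 0.42), against 8.81 and 3.38% of all genes. They were 3 and 5 (median -0.06) in HF knockout against HF floxed, against 4.59 and 3.06%. In LF knockout against LF floxed they were 0 and 1 (median 0.04), against 2.58 and 2.55%. The smallest p in HF floxed against LF floxed were those of Adamts7, a secreted metalloproteinase with thrombospondin repeats, at 0.683 ± 0.1 against 2.18 ± 0.531 FPKM (edgeR adjusted p = 0.177), and Adamtsl2, a related matrix protein, at 4.31 ± 1.26 against 1.60 ± 0.478 FPKM (edgeR adjusted p = 0.206). Mmp13, interstitial collagenase of rodents, had 36, 58 and 2 counts in HF floxed against 0, 0 and 0 in LF floxed libraries. With 3 counts over the LF floxed group as the floor, the ratio was 30.8-fold, leaving aside counting error in HF floxed libraries (edgeR adjusted p = 0.236). Mmp13 passed the filter on low counts through HF libraries, in which it was higher, so its fold and p are description only. The 36 and 58 counts are those of the near-identical pair.

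On HF, Adamtsl2 averaged 2.06 ± 0.353 in knockout against 4.31 ± 1.26 FPKM in floxed libraries, and the plasma inhibitors Pzp and Serpinf2 (alpha-2-antiplasmin) averaged 1740 ± 1100 against 756 ± 17.8 and 583 ± 215 against 302 ± 61.3 FPKM (edgeR adjusted p = 0.598 for the 3 genes). HF knockout replicate 2 had the highest Pzp level, 3008 FPKM. In HF knockout against LF knockout, the sheddase Adam17 averaged 4.48 ± 1.57 against 2.86 ± 0.59 FPKM, and the serpin Serpinb6a 15.9 ± 10.1 against 6.02 ± 0.421 FPKM (edgeR adjusted p = 0.344 for both). Adamts14, a procollagen N-proteinase, averaged 1.16 ± 1.79 against 0.1 ± 0.0346 FPKM, with HF knockout replicate 2 at 3.22 FPKM (edgeR adjusted p = 0.344). Adamts14 had at most 10 counts in LF libraries and passed the filter on low counts through HF libraries, so its values are description only. On LF, Adamts7 averaged 0.993 ± 0.44 in knockout against 2.18 ± 0.531 FPKM in floxed libraries, and Adamts4, an aggrecanase, 0.69 ± 0.0721 against 1.05 ± 0.474 FPKM. Mmp13 had 2, 5 and 4 counts in LF knockout against 0, 0 and 0 in LF floxed libraries, too few to size a fold (edgeR adjusted p = 0.929 for the 3 genes).

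The protein products of Plg and Reck interact directly with those of the members. Plg, the plasminogen gene, averaged 923 ± 104 FPKM in HF knockout, 665 ± 100 in HF floxed, 782 ± 39.3 in LF knockout and 704 ± 88.4 in LF floxed libraries. Reck, a membrane-anchored inhibitor of metalloproteinases, averaged 0.303 ± 0.186, 0.607 ± 0.0971, 0.817 ± 0.567 and 0.933 ± 0.256 FPKM in the same order, and its log2 difference for HF against LF averaged over genotypes was -1.16 (SE 0.36, edgeR adjusted p = 0.206). Neither passed in any comparison.

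In bulk liver, fewer cells of a type and less RNA per cell cannot be told apart, and summed markers of several cell types also differed between groups and libraries. All 18 stellate cell and fibroblast markers were listed, with 0 at 0 in any library, and their summed level was 88.9 to 259 FPKM in HF knockout, 199 to 331 in HF floxed, 160 to 211 in LF knockout and 131 to 206 in LF floxed libraries. In HF floxed against LF floxed, 18 of 18 had log2 differences above 0, against 49.9% of all genes. In HF knockout against HF floxed, 3 of 18 did, against 53.4%. In HF knockout against LF knockout 9 of 18 did, against 52.9%, and in LF knockout against LF floxed 14 of 18, against 47.4%. These shares of all genes hold for the lists below as well. The 12 markers of monocytes and lipid-associated macrophages summed to 56.2 to 980 FPKM in HF knockout, 60.8 to 225 in HF floxed, 49.8 to 56.1 in LF knockout and 42.9 to 103 in LF floxed libraries, with the top value in HF knockout replicate 2. The 10 Kupffer cell markers summed to 170 to 695, 170 to 384, 145 to 215 and 108 to 326 FPKM in the same order, and to 170 FPKM in HF knockout replicate 2. Of these, 10 of 10 had log2 differences above 0 in HF knockout against HF floxed and against LF knockout. In HF floxed against LF floxed 5 did, and in LF knockout against LF floxed 2. Of the 12 monocyte and lipid-associated macrophage markers, 11 did in HF floxed and 12 in HF knockout against the LF group of the same genotype. In knockout against floxed, 6 of the 12 did on HF and 6 on LF. The 12 neutrophil markers summed to 546 FPKM in HF knockout replicate 3 and to at most 14.1 FPKM elsewhere. The 13 endothelial markers summed to 38.6 FPKM in HF knockout replicate 1 and to 62.2 to 145 FPKM in the others. Of the 13, 10 had log2 differences above 0 in HF floxed against LF floxed and 6 in HF knockout against LF knockout. In knockout against floxed, 7 of the 13 did on HF and 11 on LF. Mesothelial markers summed to 0.56 to 1.82 FPKM in HF knockout, 3.12 to 6.69 in HF floxed, 2.3 to 2.55 in LF knockout and 1.08 to 2.06 in LF floxed libraries. Of the 5 tested, 5 had log2 differences above 0 in HF floxed against LF floxed. In HF knockout against HF floxed 0 did, against LF knockout 0, and in LF knockout against LF floxed 3. Hepatocyte markers summed to 59100 to 121000 FPKM in HF knockout and 46700 to 52100 in HF floxed libraries. On LF, they summed to 57600 to 73800 FPKM in knockout and 58800 to 81000 in floxed libraries. Of the 12, 0 had log2 differences above 0 in HF floxed against LF floxed and 6 in HF knockout against LF knockout. In knockout against floxed, 7 of the 12 did on HF and 2 on LF. Cholangiocyte markers, which share Spp1 with the macrophage list, summed to 757 FPKM in HF knockout replicate 2 and to 22.6 to 110 FPKM elsewhere. The part of these shifts in the members' values was not tested.

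**Figure D5:**
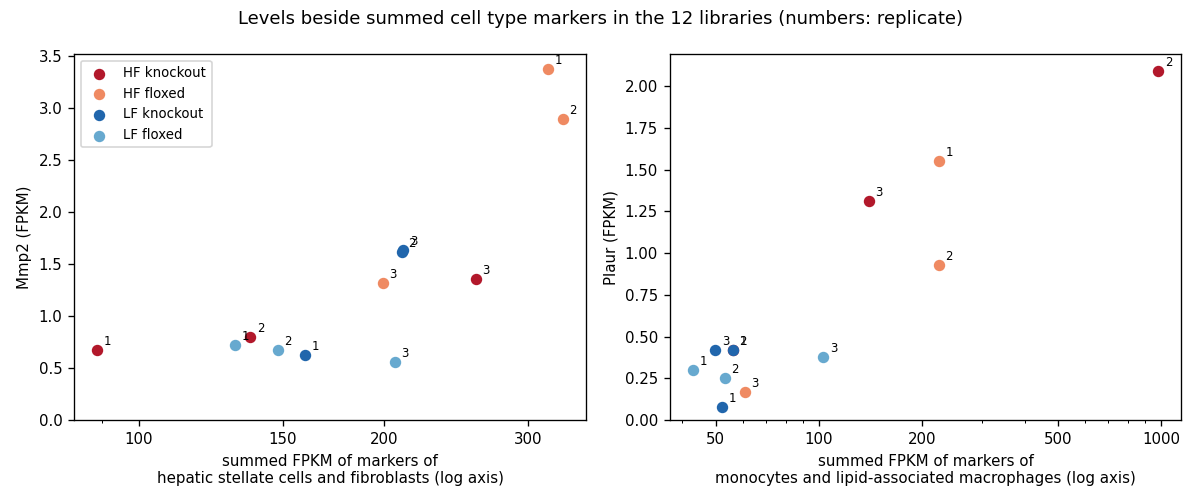
Mmp2 (left) and Plaur (right) in FPKM against the summed FPKM of stellate cell and fibroblast markers and of monocyte and lipid-associated macrophage markers (log axes); points are the 12 libraries, numbered by replicate. The top Mmp2 libraries, HF floxed 1 and 2, have stellate sums of 318 and 331 FPKM. The top Plaur library, HF knockout 2, has a sum of 980 FPKM on the monocyte and lipid-associated macrophage list. Its Kupffer cell sum, not drawn, is 170 FPKM, the lowest of HF knockout. The drawn list shares Spp1 with the cholangiocyte list, which sums to 757 FPKM in that library.

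Genes of like pattern over the 12 libraries were sought among 12256 protein-coding genes, by Pearson correlation of log2(FPKM + 1). Nearest to Mmp2 were Limk1 (r = 0.98, Spearman rho = 0.928), Kbtbd11 (0.97, 0.891), Cdk11b (0.969, 0.935) and S100a10 (0.966, 0.855). Nearest to Timp1 were Cyp21a1 (r = 0.981, rho = 0.886), Kctd17 (0.98, 0.949), Cd34 (0.976, 0.942) and Ttc39a (0.972, 0.986). Nearest to Plaur were Ppp1r9b (r = 0.966, rho = 0.951), Sybu (0.963, 0.892), Ppm1h (0.961, 0.965) and Serpinb6a (0.956, 0.901). These values describe 12 libraries that share near-identical pairs and the groups above. Among the members, Timp1 and Timp2 had the highest Pearson correlation (r = 0.895) and Timp1 and Plau the highest Spearman correlation (rho = 0.925). Mmp19 was least like the rest by Pearson correlation (r between 0.046 and 0.349).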

How the data were processed

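Liver was flash frozen, the RNeasy kit gave total RNA, and BGI made and sequenced 12 libraries (4 groups of 3), per the labels' protocols. The submitters' processing notes name mm9 as genome build. Aligner, counter and annotation: not given in the sources used here. The deposited files hold estimated counts per gene, which the authors did not scale (87.0 to 88.1% of the values are whole numbers), and FPKM values, which the authors scaled to gene length and library. Files list no gene under 0.01 FPKM, so an absent gene was taken as 0, which touched 3825 of 16239 named genes but none of the 9 described. The 1229 loci without a gene name, 6.65 to 17.33% of the counts, entered neither library sizes nor tests. Libraries held 16131506 to 16536016 counts.

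Rounded counts went into edgeR 4.0.16 (R 4.3.3; TMM factors, filterByExpr, quasi-likelihood F tests) over all 12 libraries with 1 mean per group, adjusting p by Benjamini-Hochberg over 12587 genes; 7 comparisons were made, with calls at a false discovery rate of 5%. Alternatives were DESeq2 1.42.0 and its size factors, limma 3.58.1 on log2 FPKM with a pseudocount of 1 or 0.1 (10533 genes reaching 1 FPKM in 3 libraries), limma voom with sample weights, other filters on low counts, a fit of only the groups compared, a replicate block, near-identical libraries averaged, 2 libraries left out together, unnamed loci kept, and each library left out. TMM-scaled CPM in place of FPKM for groups that do not overlap was added after the data were seen. Same-numbered libraries were checked for pairing by the correlation of their deviations from group means: 3 of 18 pairs exceeded 0.1 (range -0.331 to 0.404). The main fit therefore used no pairing by number, though this check cannot exclude a shared litter, batch or day. The scripts were tested on simulated counts.

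The members and the list of other genes were chosen with earlier results of these data known. Named besides the 9 members are the 3 genes of smallest p of the list of 58 in each pairwise comparison, Plg and Reck, and the 4 genes of most similar pattern to Mmp2, Timp1 and Plaur. Another gene that the rule covers is not reported here. Overlapping genes came from GENCODE M21, and promoters from RefSeq (GRCm38.p6), another build than that of the files; only the promoters' own positions are printed.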

Additional observations from a re-analysis of the deposited data

How the results depend on the processing

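Followed under the alternatives were 51 member log2 differences: those of all 9 members in the pairwise comparisons and the interaction, and those of the 6 members with an unadjusted p under 0.05 for HF against LF averaged over genotypes. Of their 1204 values, 1158 kept their direction and their side of the threshold, 16 had the same direction and newly passed, and 30 changed direction; 40 of 51 differences never changed it. HF knockout against HF floxed had Mmp19 at -0.0221 with log2(FPKM + 1), -0.0226 with log2(FPKM + 0.1) and -0.0564 with near-identical libraries averaged. Plau in that comparison was at -0.0443, -0.43, -0.13 and -0.0473 with log2(FPKM + 1), log2(FPKM + 0.1), the replicate block and voom. With log2(FPKM + 0.1), Timp3 was at -0.12 in HF knockout against LF knockout. With voom, Plaur was at 0.18 in LF knockout against LF floxed and Mmp14 at -0.18 in the interaction. Without HF floxed replicate 3 and HF knockout replicate 1, Mmp19 was at -0.12 in HF floxed against LF floxed, and Timp3 at 0.18 in HF knockout against HF floxed and 0.0839 in the interaction.

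Leaving out each library in turn, calls among the members stayed at 0 to 0. Differences that changed sign ranged from -0.006 to 0.37 (Mmp14) and -0.11 to 0.47 (Mmp19) for HF floxed against LF floxed, and from -0.20 to 0.78 (Timp3) for HF knockout against LF knockout. For HF knockout against HF floxed they ranged from -0.0679 to 0.34 (Mmp19), -1.67 to 0.31 (Plat), -0.46 to 0.69 (Plau) and -0.72 to 0.29 (Timp3). For LF knockout against LF floxed the ranges were -0.46 to 0.25 (Plaur) and -0.22 to 0.43 (Timp3), and for the interaction -0.14 to 0.66 (Mmp14) and -0.80 to 0.19 (Timp3).

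Members called were 3 with DESeq2, 3 with voom and 2 without the 2 libraries in HF floxed against LF floxed, and 2, 1 and 5 in HF against LF averaged over genotypes, against 0 with edgeR. The cause was not tested. With TMM-scaled CPM, groups that did not overlap numbered 1 (Plaur, higher) in HF knockout against LF knockout, 1 (Mmp2, lower) in HF knockout against HF floxed and 0 in LF knockout against LF floxed, against 0, 0 and 1 in FPKM. On that scale 7.17, 4.75 and 6.53% of all genes were apart and higher, and 6.75, 5.35 and 6.9% apart and lower, in the same order. On log2 FPKM, over the 10533 genes tested there, the median difference of all genes was 0.20 and 0.24 (pseudocounts 1 and 0.1) in HF floxed against LF floxed, -0.11 and -0.14 in HF knockout against HF floxed, 0.12 and 0.15 in LF knockout against LF floxed, and -0.23 and -0.29 in the interaction, against 0.00, 0.03, -0.02 and 0.05 in the counts. The replicate block left 0 members called in all 7 comparisons. In the fit of only the groups compared, 7 members were tested in HF floxed against LF floxed. There 82 of 12077 genes and 0 members were called. In LF knockout against LF floxed 6 members were tested, with 11 of 11872 genes and 0 members called. The remaining members were tested there only with the other groups' libraries included. In HF knockout against LF knockout and against HF floxed, 9 members were tested and 0 called. Few counts of Timp1, Plat, Plau and Plaur limit their precision, and 3 libraries a group limit every comparison.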
